A study of Mus musculus with 4 samples.

Results

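Fatty acid uptake and oxidation genes were followed in the hearts of mice lacking both miR-1 genes and in control hearts. They are the enzymes, carriers, lipases and regulators through which heart muscle takes up fatty acids, moves them into mitochondria and oxidises them. The set was defined by gene name from a list of 37 names, of which 35 matched a row of the deposited tables (22552 rows each). The other two were older names of Eci1 and Eci2. Each of the 35 genes reached an FPKM (fragments per kilobase of transcript, scaled for sequencing depth, a level corrected for transcript length) of at least 1 in at least 1 library, so none was left out.

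The groups were whole hearts at postnatal day 2.5 (P2.5) from mice lacking both miR-1-2 and miR-1-1 (dKO) and from controls labelled dHET, and whole hearts at embryonic day 15.5 (E15.5) with the same labels, in strain Sv129. The series text calls the P2.5 control a littermate. The control column is headed as heterozygous in the P2.5 table but as WT in the E15.5 table, where it was taken as the dHET sample because that stage has no other control. Each group was 1 library of poly-A RNA, so the values lack a replicate error and differences between groups were not tested. The labels do not say whether a library holds 1 heart or a pool.

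Fatty acids reach heart muscle from circulating triglyceride, are handed across the cell membrane and are joined to coenzyme A. The carnitine shuttle then carries them into the mitochondrion, where each turn of beta-oxidation shortens the chain and passes electrons to the respiratory chain. The fetal heart relies largely on glucose and lactate, and the heart turns to fatty acids after birth. The nuclear receptor PPARalpha and the estrogen-related receptors are known activators of many of these genes.

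The libraries were deep, with scaling totals of 49900000 (dKO) and 44600000 (dHET) fragments at P2.5 and 104000000 (dKO) and 86500000 (dHET) at E15.5, recovered from the low FPKM values. These totals need not equal the mapped reads. The deleted genes, Mir1a-1 and Mir1a-2 in the tables, were listed at 0 FPKM in all 4 libraries, so these values do not check the deletion. Cardiac muscle markers were high in all 4 libraries, with 8 of 8 usable markers at an FPKM of at least 1. Of 10 adipocyte markers, 8 were under 0.05 FPKM in every library, Adipoq, Lep, Plin1 and Ucp1 among them; only Fabp4 and Cidea, which heart tissue also expresses, were measured. Of 7 skeletal muscle markers, Myh1, Myh2, Myh4, Myod1 and Pax7 lay between 0 and 0.0749 FPKM, whereas Ckm (571 to 1430 FPKM) and Acta1 (74.3 to 88.1 FPKM), which heart muscle also expresses, were high. Xist had 50.7 FPKM in P2.5 dKO hearts and 0.101 FPKM in P2.5 dHET hearts, and the Y-linked Ddx3y had 0 FPKM in P2.5 dKO and 11.7 FPKM in P2.5 dHET, so sex and genotype cannot be told apart at P2.5. At E15.5 both libraries expressed Ddx3y, at 14.8 FPKM in dKO and 15.3 FPKM in dHET.

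The sequences that the comparisons touch come first. The deleted microRNA pairs through its seed with the word ACATTCC in 3' UTRs, and 1 of the 35 genes held that word in the annotated 3' UTR of its longest coding transcript (GENCODE M1, build NCBIM37, the assembly of mm9). The word was present in 1104 of 11302 genes with an FPKM of at least 1 at P2.5 (9.77%), whose median 3' UTR was 931 bases long against 581 bases for the fatty acid genes. The carrier was Cpt1a, which encodes the liver form of the first carnitine enzyme. Its site lies on the plus strand at chr19:3385422-3385450, with the seed match in capitals.
Cpt1a site: acccaagtgtgACATTCCtctctcaggtc
The extended word ACATTCCA was found in 0 of the 35 genes. A match is a description of the letters and not a site shown to be bound.

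Promoter windows of 300 bases (250 before to 50 after the start, from RefSeq, build GRCm38.p6) were held for 30 of the 35 genes. The half-site AGGTCA, to which PPARalpha and the estrogen-related receptors bind in longer forms, was searched on both strands and was present in the windows of 6 genes, Acadm, Acadvl, Cd36, Cpt1a, Plin5 and Ucp3, that is in 7 of 35 windows, and in 16.26% of all 32851 windows. The longer word AAGGTCA, which contains it, was present in Acadm and in 4.72% of all windows. TCAAGGTCA, and a direct repeat of AGGTCA with 1 base between the copies, were found in 0 of the 35 windows, and in 0.42% and 0.04% of all windows. The windows of Plin5 and Ucp3 are shown because these genes had spreads of levels between the stages that were among the widest, and that of Acadm because it carries the longer word; capitals mark AGGTCA or its reverse complement. They lie at chr17:56117499-56117798 on the minus strand (Plin5), chr7:100472741-100473040 on the plus strand (Ucp3) and chr3:153944594-153944893 on the minus strand (Acadm).
Plin5 promoter: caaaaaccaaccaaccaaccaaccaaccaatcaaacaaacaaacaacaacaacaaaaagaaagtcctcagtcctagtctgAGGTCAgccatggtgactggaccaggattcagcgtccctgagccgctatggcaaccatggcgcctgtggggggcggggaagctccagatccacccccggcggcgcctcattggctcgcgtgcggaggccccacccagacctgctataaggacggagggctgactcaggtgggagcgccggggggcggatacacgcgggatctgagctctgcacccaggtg
Ucp3 promoter: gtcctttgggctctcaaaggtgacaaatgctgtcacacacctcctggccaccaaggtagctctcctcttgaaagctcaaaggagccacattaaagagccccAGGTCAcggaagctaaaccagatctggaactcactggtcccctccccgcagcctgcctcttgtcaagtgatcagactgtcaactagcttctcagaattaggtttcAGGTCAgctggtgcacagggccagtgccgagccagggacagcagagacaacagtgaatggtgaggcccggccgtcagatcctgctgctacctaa
Acadm promoter: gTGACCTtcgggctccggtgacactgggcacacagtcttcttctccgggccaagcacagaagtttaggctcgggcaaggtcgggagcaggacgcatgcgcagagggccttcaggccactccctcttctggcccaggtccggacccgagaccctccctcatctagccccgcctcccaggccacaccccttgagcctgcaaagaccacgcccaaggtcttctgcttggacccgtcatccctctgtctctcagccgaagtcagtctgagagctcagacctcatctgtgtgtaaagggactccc

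Of the fatty acid genes that reached an FPKM of 1 at a stage, none differed by 1.5-fold or more between dKO and dHET at that stage. Plin5 and Ucp3 were under an FPKM of 1 at E15.5 and were not counted there. Ucp3 then had 0.0354 FPKM in dKO and 0.0756 FPKM in dHET, from too few fragments to compare genotypes. At P2.5, 0 of 35 genes were at least 1.5-fold higher or lower in dKO, on the scale log2((FPKM dKO + 1)/(FPKM dHET + 1)), against a background of 4.72% of 11699 genes (3.4% higher and 1.32% lower). At E15.5, 0 of the 33 genes that reached an FPKM of 1 at that stage passed this fold, against 1.2% of 11704 genes. Of the 11704 genes, 0.478% were higher and 0.726% lower. With 35 genes these backgrounds correspond to few genes, so counts of 0 do not set the fatty acid genes apart. Their median log2 change was 0.11 at P2.5, beside 0.07 over all genes, but -0.06 when each library was rescaled to 1 common sum. It was 0.05 when centred on the median of all genes, and -0.01 with GC content and length adjusted, which also centres all genes. At E15.5 it was -0.04, beside -0.01. The median absolute change was 0.16 at P2.5, beside 0.17 over all genes, and 0.10 at E15.5, beside 0.09.

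None of the 35 genes (0) was called significant in the authors' deposited table, at P2.5 or at E15.5, against 0.406% and 0.936% of the rows they tested. The smallest unadjusted p in the authors' deposited table was 0.054 for Etfb at P2.5, and at E15.5 it was 0.00961 for Acsl1 (q = 0.465), the only one of the 34 genes tested by them with a p under 0.05. Over all tested rows that share was 4.81% (P2.5) and 4.36% (E15.5). The log2 standard errors implied by the fold changes and statistics of the authors' deposited table had a median over these genes of 0.29 (P2.5) and 0.17 (E15.5). The authors' p-values compare 2 libraries and not genotypes.

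**Figure D1:**
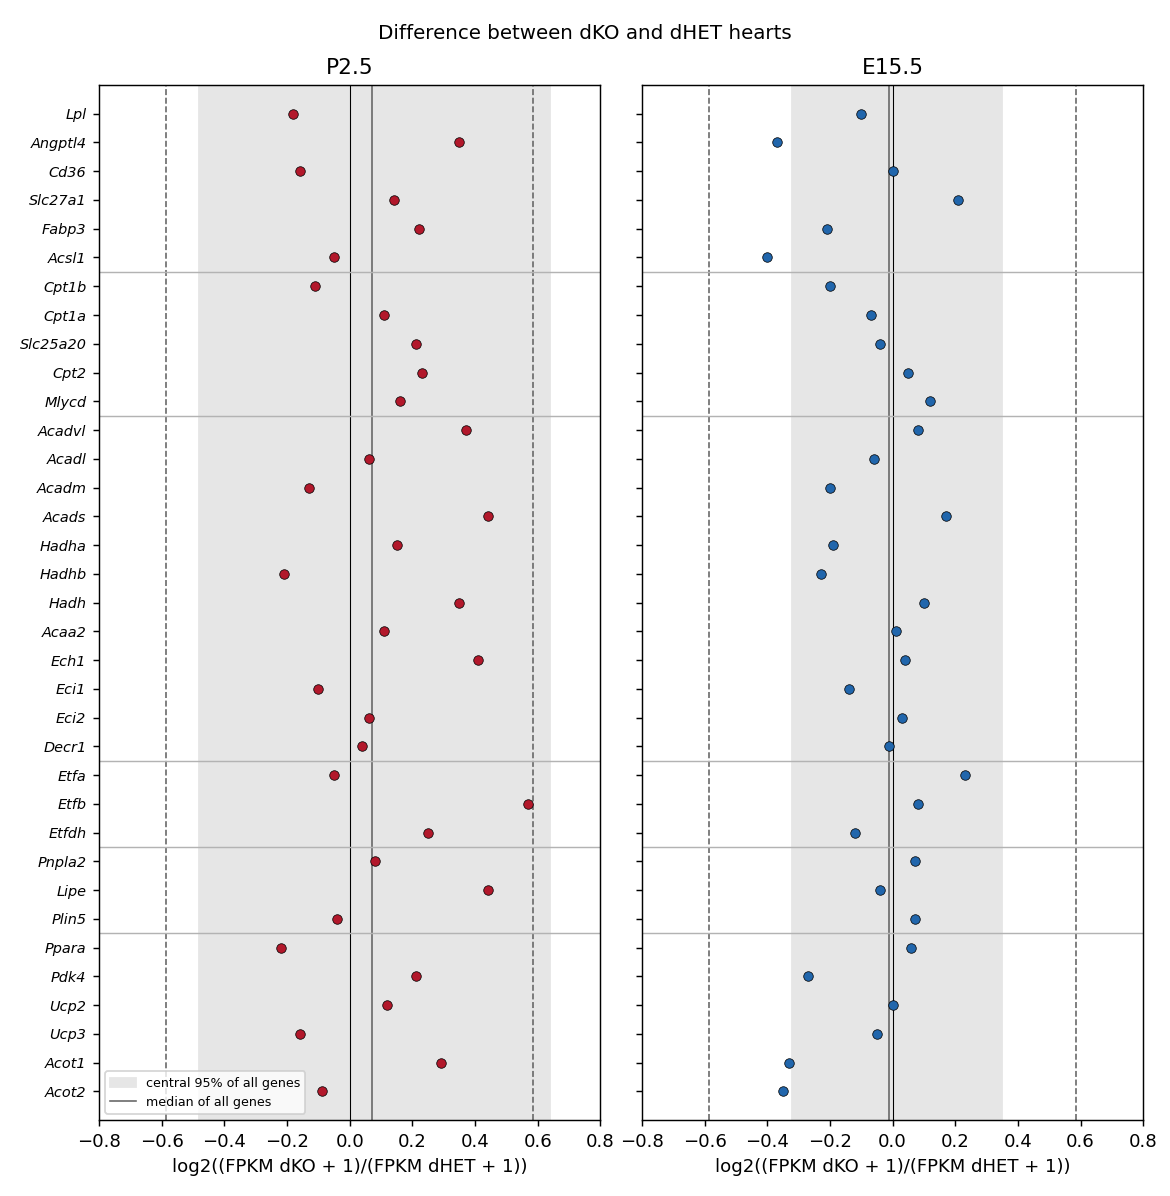
Log2 change of each gene, dKO over dHET, at P2.5 (left) and E15.5 (right), 1 point per gene from 1 library per group, with the central 95% of all genes in grey, dashed lines at 1.5-fold and grey lines between functional groups. No point lies beyond the dashed lines; Etfb at P2.5 (0.57) and Acsl1 at E15.5 (-0.40) come nearest, and Plin5 and Ucp3 were under an FPKM of 1 at E15.5.

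The level of nearly every fatty acid gene was higher at P2.5 than at E15.5, and this held in dKO and in dHET hearts. The 2 tables were normalised separately and read from 1 end (P2.5) or from both ends (E15.5), so these are levels set side by side and not a test. In dKO, sex and stage also cannot be told apart, with Ddx3y at 0 FPKM at P2.5 and 14.8 FPKM at E15.5. In dHET, Ddx3y was expressed at both stages, at 11.7 and 15.3 FPKM. In dKO hearts 34 of 35 genes were at least 1.5-fold higher at P2.5 on the log2(FPKM + 1) scale, and in dHET hearts also 34 of 35, against backgrounds of 14.3% of 11922 genes and 11.6% of 11950 genes. At least 2-fold higher were 31 genes in dKO, against 5.6% of all genes, and 29 in dHET, against 4.79%. The median log2 difference between stages was 1.68 in dKO and 1.38 in dHET, beside -0.01 and -0.08 over all genes. The gene short of 1.5-fold was Ppara in both genotypes. This count was made after the values were seen.

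The rank of a gene within its own library does not depend on the scaling of the table. Among 22321 genes, each of the 35 ranked higher at P2.5 than at E15.5 in dKO, and likewise in dHET. Their median percentile was 97.3 in P2.5 dKO, 97.2 in P2.5 dHET, 93.5 in E15.5 dKO and 93.2 in E15.5 dHET. Together they made up 1.468% of the summed FPKM in P2.5 dKO and 1.499% in P2.5 dHET, against 0.616% in E15.5 dKO and 0.639% in E15.5 dHET. These sums cover only rows with the status OK or NOTEST, so they are not whole-library totals. Summed FPKM of the 8 usable cardiac muscle markers was also higher at P2.5, at 29400 (dKO) and 22700 (dHET), against 12300 and 12900 at E15.5. The listed Myh6 and Myh7 lacked usable values at both stages together and are not in these sums. The gap was uneven among the 8. Nkx2-5 had 86.8 and 75.7 FPKM in P2.5 dKO and dHET, against 70.1 and 67.0 FPKM at E15.5. For Tnni3 these were 1580 and 1260 FPKM, against 385 and 484 FPKM. Whether more muscle cells or more RNA per cell stands behind the higher levels cannot be told apart in bulk hearts. The order of the 35 levels was much alike between libraries, with Spearman's rho of 0.985 between genotypes at P2.5, 0.994 at E15.5 and 0.941 between stages in either genotype, as a description over genes.

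**Figure D2:**
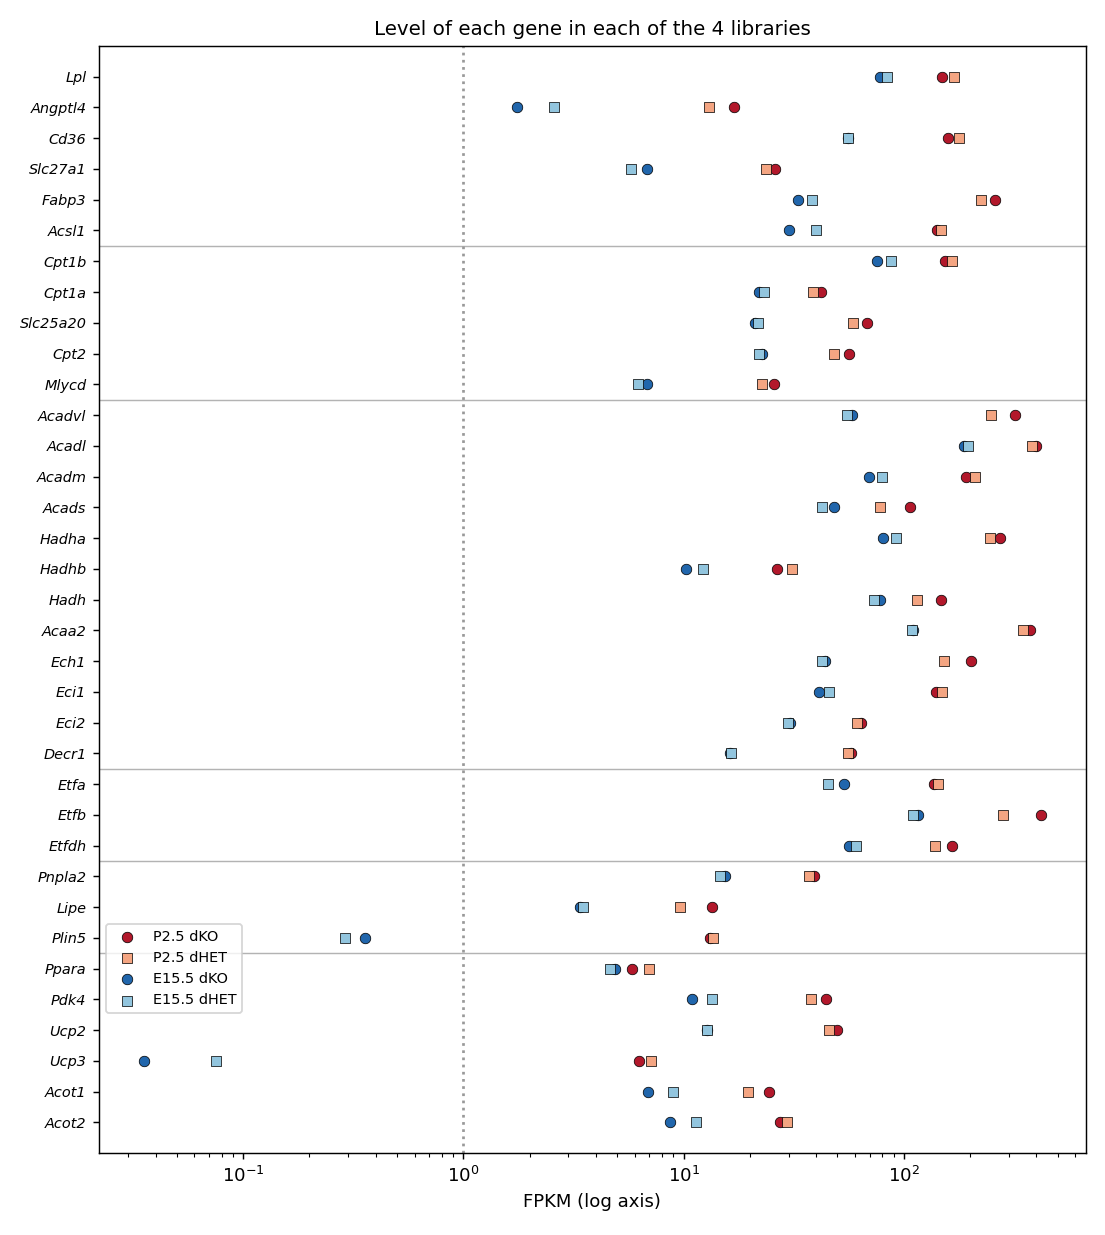
FPKM of the 35 genes (log axis) in the 4 libraries, with circles for dKO, squares for dHET, red for P2.5 and blue for E15.5, grouped from top to bottom into uptake, carnitine shuttle, beta-oxidation, electron transfer, droplet lipolysis and regulation. The red points lie to the right of the blue ones in each row, whereas circle and square of a stage lie close together; the gap is narrowest for Ppara and widest for Ucp3 and Plin5.

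Genes of uptake and activation summed to 754 FPKM in P2.5 dKO and 755 FPKM in P2.5 dHET hearts, against 206 FPKM in E15.5 dKO and 227 FPKM in E15.5 dHET. Lpl, the lipoprotein lipase that frees fatty acids from circulating triglyceride (chromosome 8, 71404454 to 71430831, mm9), had 149 FPKM in P2.5 dKO and 169 FPKM in P2.5 dHET, and 78.1 FPKM in E15.5 dKO and 83.7 FPKM in E15.5 dHET. With genotype it had log2 changes of -0.18 (P2.5) and -0.10 (E15.5). Both P2.5 libraries were above both E15.5 libraries.

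Angptl4, a secreted inhibitor of that lipase and a known PPAR target, had 16.9 FPKM in P2.5 dKO and 13.1 FPKM in P2.5 dHET, against 1.75 FPKM in E15.5 dKO and 2.57 FPKM in E15.5 dHET. It was thus somewhat higher in dKO at P2.5 (log2 change 0.35) and lower at E15.5 (-0.37), neither reaching 1.5-fold. Because Angptl4 differed more between stages than Lpl, the ratio of Lpl to Angptl4 within a library was 8.78 in P2.5 dKO and 12.9 in P2.5 dHET, against 44.5 in E15.5 dKO and 32.6 in E15.5 dHET.

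Cd36, the membrane fatty acid translocase, had 159 FPKM in P2.5 dKO and 178 FPKM in P2.5 dHET, and 56.1 FPKM in each E15.5 library. The transporter Slc27a1 had 26.1 and 23.6 FPKM in P2.5 dKO and dHET, against 6.84 and 5.76 FPKM in E15.5 dKO and dHET. Neither gene separated the genotypes by more than 0.21 on the log2 scale at either stage.

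Acsl1, the synthetase that joins long-chain fatty acids to coenzyme A in heart (chromosome 8, 47556396 to 47621404), had 142 FPKM in P2.5 dKO and 147 FPKM in P2.5 dHET. At E15.5 it had 30.2 FPKM in dKO and 40.0 FPKM in dHET, a log2 change of -0.40, the lowest of these genes at that stage. This order depends on the pseudocount of 1. With a pseudocount of 0.1 Acsl1 was at -0.41 and Angptl4 at -0.53. Fabp3, the fatty acid binding protein of heart muscle, had 261 FPKM in P2.5 dKO and 224 FPKM in P2.5 dHET, against 33.0 FPKM in E15.5 dKO and 38.4 FPKM in E15.5 dHET. Copies elsewhere in the genome (at least 95% identity over at least 100 bases) cover 91.6% of the Fabp3 transcript, so its level is uncertain.

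Genes of the carnitine shuttle differed less between stages, with median log2 differences of 1.27 in dKO and 1.09 in dHET. Cpt1b encodes the muscle form of the rate-limiting carnitine palmitoyltransferase on the outer mitochondrial membrane (chromosome 15, 89246836 to 89260358). It had 154 FPKM in P2.5 dKO and 166 FPKM in P2.5 dHET, against 76.0 FPKM in E15.5 dKO and 87.6 FPKM in E15.5 dHET. Cpt1a, the form named above for its seed match (chromosome 19, 3323301 to 3385733), had 42.1 FPKM in P2.5 dKO and 38.9 FPKM in P2.5 dHET, against 22.1 FPKM in E15.5 dKO and 23.2 FPKM in E15.5 dHET. With genotype, Cpt1a had a log2 change of 0.11 (P2.5) and -0.07 (E15.5), close to the medians of all genes.

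The muscle form exceeded the liver form in each library, with a ratio of Cpt1b to Cpt1a of 3.65 in P2.5 dKO, 4.27 in P2.5 dHET, 3.44 in E15.5 dKO and 3.77 in E15.5 dHET. Both forms were higher at P2.5 by similar factors. Slc25a20, the carrier that exchanges acylcarnitine for carnitine across the inner membrane, had 68.1 and 58.7 FPKM in P2.5 dKO and dHET, against 21.2 and 21.9 FPKM in E15.5 dKO and dHET. Cpt2, which restores the coenzyme A ester inside, had 56.4 and 48.0 FPKM in P2.5 dKO and dHET, against 22.8 and 22.0 FPKM in E15.5 dKO and dHET.

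Mlycd removes malonyl-CoA, the inhibitor of the first carnitine step, and Acacb makes it at the mitochondrion. Mlycd had 25.7 FPKM in P2.5 dKO and 22.8 FPKM in P2.5 dHET, against 6.82 FPKM in E15.5 dKO and 6.21 FPKM in E15.5 dHET. The ratio of Mlycd to Acacb was 0.775 in P2.5 dKO and 0.785 in P2.5 dHET, against 0.416 in E15.5 dKO and 0.398 in E15.5 dHET. It was close between genotypes and higher at P2.5 in both.

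**Figure D3:**
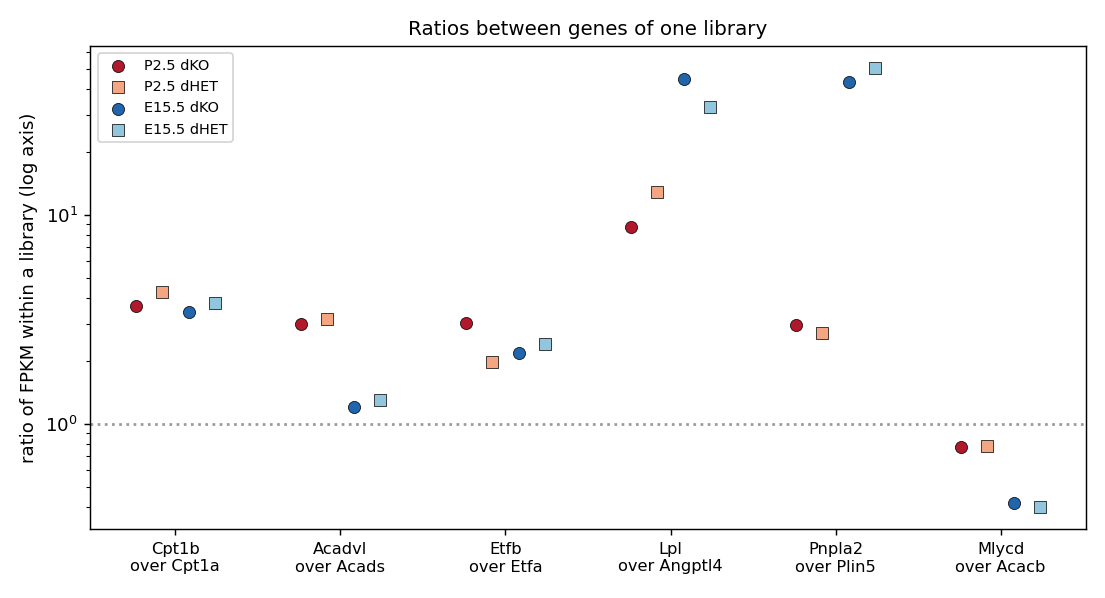
Ratios of FPKM between named genes within a library (log axis), in the order P2.5 dKO, P2.5 dHET, E15.5 dKO and E15.5 dHET for each pair. Cpt1b over Cpt1a stays between 3.44 and 4.27, Acadvl over Acads and Mlycd over Acacb are higher at P2.5, Lpl over Angptl4 and Pnpla2 over Plin5 are lower at P2.5, and Etfb over Etfa is highest in P2.5 dKO.

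The beta-oxidation enzymes held most of the signal, with 2300 FPKM in P2.5 dKO and 2080 FPKM in P2.5 dHET summed over 12 genes, against 775 FPKM in E15.5 dKO and 794 FPKM in E15.5 dHET. The acyl-CoA dehydrogenases take the first step and are divided by chain length. Acadl, the long-chain enzyme (chromosome 1, 66877427 to 66909841), was among the highest genes of the set, at 397 FPKM in P2.5 dKO and 382 FPKM in P2.5 dHET, and 187 FPKM in E15.5 dKO and 195 FPKM in E15.5 dHET. Acadvl, for very long chains (chromosome 11, 69823694 to 69828909), had 320 FPKM in P2.5 dKO and 248 FPKM in P2.5 dHET, against 58.5 FPKM in E15.5 dKO and 55.4 FPKM in E15.5 dHET. Acadl had the higher level in each library, whereas Acadvl differed more between stages.

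Acadm, for medium chains, had 192 FPKM in P2.5 dKO and 210 FPKM in P2.5 dHET, against 69.4 FPKM in E15.5 dKO and 79.9 FPKM in E15.5 dHET. Acads, for short chains, had 107 FPKM in P2.5 dKO and 78.4 FPKM in P2.5 dHET, a log2 change of 0.44, and 48.2 FPKM in E15.5 dKO and 42.7 FPKM in E15.5 dHET (0.17). The ratio of Acadvl to Acads was 3.0 in P2.5 dKO and 3.16 in P2.5 dHET, against 1.21 in E15.5 dKO and 1.30 in E15.5 dHET, so the very long chain enzyme gained on the short chain enzyme in both genotypes.

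Hadha and Hadhb encode the alpha and beta subunits of the mitochondrial trifunctional protein and lie head to head on chromosome 5. Their RefSeq start sites are 273 bases apart, and 228 bases of their promoter windows are shared. Hadha had 275 FPKM in P2.5 dKO and 247 FPKM in P2.5 dHET, against 80.5 FPKM in E15.5 dKO and 91.9 FPKM in E15.5 dHET. Hadhb had 26.7 FPKM in P2.5 dKO and 31.0 FPKM in P2.5 dHET, against 10.3 FPKM in E15.5 dKO and 12.2 FPKM in E15.5 dHET.

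Levels of the alpha subunit were thus above those of the beta subunit by factors of 10.3, 7.96, 7.86 and 7.51 in P2.5 dKO, P2.5 dHET, E15.5 dKO and E15.5 dHET. Copies elsewhere cover 94.5% of the Hadhb transcript and 0% of the Hadha transcript, so the level of Hadhb is uncertain; the part of these copies in the ratio was not tested.

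Of the remaining enzymes, Hadh, the short-chain hydroxyacyl-CoA dehydrogenase, had 147 FPKM in P2.5 dKO and 115 FPKM in P2.5 dHET, against 78.4 FPKM in E15.5 dKO and 73.3 FPKM in E15.5 dHET. The thiolase gene Acaa2, which takes the last step, had 374 and 347 FPKM in P2.5 dKO and dHET, against 110 and 109 FPKM in E15.5 dKO and dHET. Its genotype differences were small at both stages, at 0.11 and 0.01 on the log2 scale.

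The auxiliary enzymes for unsaturated fatty acids were also higher at P2.5 in both genotypes. Ech1, a dienoyl-CoA isomerase, had 202 FPKM in P2.5 dKO and 152 FPKM in P2.5 dHET, a log2 change of 0.41, against 43.8 FPKM in E15.5 dKO and 42.6 FPKM in E15.5 dHET. The isomerases Eci1 and Eci2 and the reductase Decr1 lay within 0.14 of 0 on the log2 scale between genotypes at both stages, and between 1.01 and 1.76 higher at P2.5. A copy elsewhere covers 21.4% of the Eci2 transcript.

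The electron transfer flavoprotein takes electrons from the acyl-CoA dehydrogenases and hands them to a membrane-bound dehydrogenase. Etfb, its beta subunit (chromosome 7, 50699513 to 50713152), had the highest change with genotype of all 35 genes at P2.5, with 419 FPKM in dKO and 282 FPKM in dHET, a log2 change of 0.57 that fell just short of 1.5-fold (0.585 on this scale). At E15.5 it had 116 FPKM in dKO and 110 FPKM in dHET, a log2 change of 0.08. Etfa, the alpha subunit, had 138 FPKM in P2.5 dKO and 143 FPKM in P2.5 dHET, against 53.6 FPKM in E15.5 dKO and 45.5 FPKM in E15.5 dHET.

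The beta to alpha ratio was therefore 3.03 in P2.5 dKO and 1.97 in P2.5 dHET, and 2.17 in E15.5 dKO and 2.42 in E15.5 dHET. A copy elsewhere covers 26.6% of the Etfa transcript. Etfdh, the membrane-bound dehydrogenase, had 165 and 139 FPKM in P2.5 dKO and dHET, against 56.2 and 61.0 FPKM in E15.5 dKO and dHET.

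Transcript base composition moved with the P2.5 changes. Over 11405 genes with a transcript sequence, the change correlated with GC content with a Pearson's r of 0.348 at P2.5, and over the 35 fatty acid genes with an r of 0.438. For E15.5 the same correlations came to 0.155 and 0.251. These are correlations across genes. With GC content and length adjusted, the P2.5 change of Etfb was 0.34, that of Acads 0.20, that of Ech1 0.24 and that of Acadvl 0.23, on the log2 scale. The adjustment also centres all genes. Centring on the median of all genes alone gave 0.50, 0.38, 0.35 and 0.30 in the same order. The 7 genes higher in dKO at P2.5 by at least 0.32 on the log2 scale were Etfb, Acads, Lipe, Ech1, Acadvl, Angptl4 and Hadh, named after their values were seen; 16.2% of all genes were higher by as much. Of these 7, Etfb alone remained with GC content and length adjusted, and also when each library was rescaled to 1 common sum (0.40); centring on the median of all genes left 4. Rescaling put 5 genes lower in dKO by that much, Cd36, Hadhb, Lpl, Ppara and Ucp3, beside 20.4% of all genes. As deposited, 0 of the 35 were lower by that much at P2.5, beside 6.74% of all genes. At E15.5 the 4 genes lower by that much were Acsl1, Angptl4, Acot2 and Acot1, beside 2.55% of all genes, and 0 were higher, beside 3.2%. With a pseudocount of 5 only Acsl1 was left.

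Among the genes of lipid droplets, Plin5 had the largest difference between stages of the whole set on the log2(FPKM + 1) scale, although the ratio of plain FPKM was larger for Ucp3. It encodes a perilipin that tethers droplets to mitochondria (chromosome 17, 56251024 to 56256971), and had 13.2 FPKM in P2.5 dKO and 13.6 FPKM in P2.5 dHET, against 0.356 FPKM in E15.5 dKO and 0.290 FPKM in E15.5 dHET. The E15.5 values rest on roughly 73 and 50 fragments in dKO and dHET. The log2 difference between stages was 3.39 in dKO and 3.50 in dHET, and with genotype it was -0.04 at P2.5.

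Pnpla2, the triglyceride lipase ATGL that starts droplet breakdown, had 39.3 FPKM in P2.5 dKO and 37.0 FPKM in P2.5 dHET, against 15.4 FPKM in E15.5 dKO and 14.6 FPKM in E15.5 dHET. The ratio of Pnpla2 to Plin5 within a library was 2.97 in P2.5 dKO and 2.72 in P2.5 dHET, against 43.3 in E15.5 dKO and 50.4 in E15.5 dHET. The lipase was thus measured at both stages, whereas its droplet partner was near the lower limit at E15.5. Lipe, the hormone-sensitive lipase, had 13.4 FPKM in P2.5 dKO and 9.65 FPKM in P2.5 dHET (log2 change 0.44), against 3.39 FPKM in E15.5 dKO and 3.50 FPKM in E15.5 dHET.

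Ppara encodes PPARalpha itself (chromosome 15, 85565994 to 85637281) and stood apart from the other genes by its small difference between stages. It had 5.85 FPKM in P2.5 dKO and 6.99 FPKM in P2.5 dHET, against 4.87 FPKM in E15.5 dKO and 4.62 FPKM in E15.5 dHET. The log2 difference between stages was 0.22 in dKO and 0.51 in dHET, the lowest of the 35 genes in both. With genotype its log2 change came to -0.22 at P2.5, the lowest of the set there, and 0.06 at E15.5.

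Pdk4, the kinase that turns off pyruvate dehydrogenase when fatty acids are used, had 44.2 FPKM in P2.5 dKO and 38.1 FPKM in P2.5 dHET, against 10.9 FPKM in E15.5 dKO and 13.4 FPKM in E15.5 dHET. Its sister kinase Pdk2 had 60.2 FPKM in P2.5 dKO and 86.5 FPKM in P2.5 dHET. The ratio of Pdk4 to Pdk2 was 0.734 in P2.5 dKO and 0.440 in P2.5 dHET, against 0.316 in E15.5 dKO and 0.369 in E15.5 dHET. The level of Pdk4 was below that of Pdk2 in all 4 libraries.

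Ucp3, the uncoupling protein of muscle (chromosome 7, 107621500 to 107634941), had 6.27 FPKM in P2.5 dKO and 7.12 FPKM in P2.5 dHET, against 0.0354 FPKM in E15.5 dKO and 0.0756 FPKM in E15.5 dHET. The E15.5 values correspond to roughly 9 and 16 fragments, too few to compare genotypes. Its neighbour Ucp2, a related carrier of broader expression, had 49.6 and 45.7 FPKM in P2.5 dKO and dHET and 12.8 FPKM in each E15.5 library. On the log2 scale with a pseudocount of 1, the difference of Ucp3 between stages was 2.81 in dKO and 2.92 in dHET, which understates so low a gene.

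The thioesterases Acot1 (cytosolic) and Acot2 (mitochondrial), which split acyl-CoA back into fatty acid and coenzyme A, lie close to each other on chromosome 12. Acot1 had 24.4 FPKM in P2.5 dKO and 19.7 FPKM in P2.5 dHET, against 6.92 FPKM in E15.5 dKO and 8.94 FPKM in E15.5 dHET. Acot2 had 27.5 FPKM in P2.5 dKO and 29.4 FPKM in P2.5 dHET, against 8.71 FPKM in E15.5 dKO and 11.4 FPKM in E15.5 dHET. Copies elsewhere cover 78.1% of the Acot1 and 58.0% of the Acot2 transcript, so reads may be shared and both values are uncertain.

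**Figure D4:**
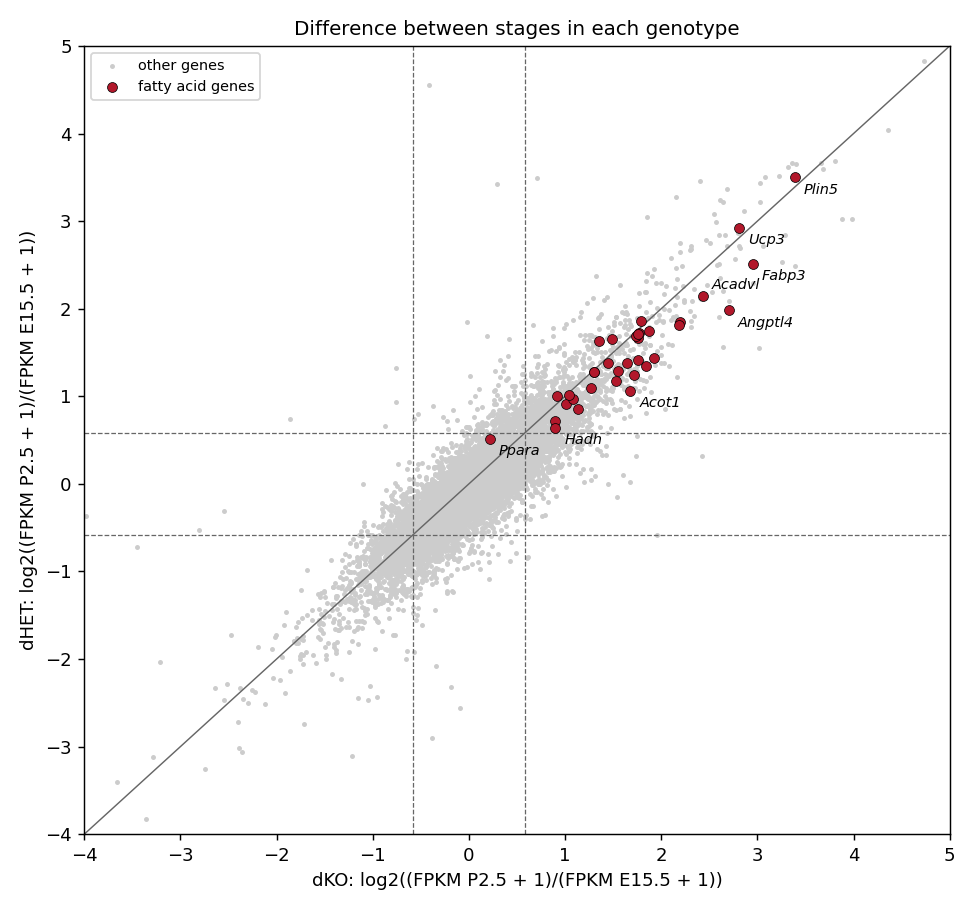
Log2 difference in FPKM between P2.5 and E15.5 in dKO (x axis) and in dHET (y axis), with the 35 fatty acid genes in red and other genes at an FPKM of at least 1 in any library in grey; dashed lines mark 1.5-fold and the diagonal marks equal differences. Ppara is the red point inside the dashed lines of both axes (0.22 and 0.51), and Plin5 (3.39 and 3.50) is the red point farthest out; other genes beyond the axis limits are not drawn.

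The genotype changes at the 2 stages share no library, and their directions were set side by side. At P2.5 sex and genotype cannot be told apart, whereas both E15.5 libraries expressed Ddx3y, so the comparisons are not alike. The direction of some small P2.5 changes also depends on scaling, such as Hadha at 0.15 as deposited and -0.02 rescaled. Of the 33 genes measured at both stages, 18 changed in the same direction, 11 upwards and 7 downwards, and 15 in opposite directions. The share with the same direction was 54.5%, beside 62.8% of 11266 genes. The difference between these shares was not tested.

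Related lists gave a context for these levels. Over all genes, 3.4% were at least 1.5-fold higher in dKO at P2.5 and 1.32% were lower. At E15.5 these shares were 0.478% and 0.726%. The share of all genes lower at P2.5 than at E15.5 was not counted at this fold. Of 22 measured genes of fatty acid activation and transport, 1 was at least 1.5-fold higher in dKO at P2.5, Dbi, the acyl-CoA binding protein, with 232 FPKM in dKO and 145 FPKM in dHET (log2 change 0.67, but 0.50 rescaled and 0.55 with GC content and length adjusted, both under 1.5-fold). At P2.5 against E15.5, 8 of the 22 were higher in dKO, beside 14.3% of all genes, and 2 were lower. In dHET 7 were higher, beside 11.6% of all genes, and 1 was lower. Among the higher ones was Gpihbp1, which anchors lipoprotein lipase to capillaries, with 42.7 FPKM in each P2.5 library against 11.3 and 8.56 FPKM in E15.5 dKO and dHET. Of 24 other mitochondrial oxidation genes, 13 in dKO and 10 in dHET were higher at P2.5, beside 14.3% and 11.6% of all genes, and 0 were lower. Between genotypes 1 of them passed 1.5-fold, Acss3, which was lower in dKO at P2.5, with 2.83 FPKM in dKO and 5.78 FPKM in dHET (log2 change -0.82, and -0.46 with a pseudocount of 5).

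Peroxisomal genes, whose products shorten very long fatty acids, showed 0 of 18 measured members past 1.5-fold with genotype at either stage. Higher at P2.5 than at E15.5 were 7 in dKO, beside 14.3% of all genes, and 3 in dHET, and 0 were lower. The dHET count is near the 11.6% of all genes. Genes of lipid droplets and triglyceride synthesis had 9 of 19 members higher at P2.5 in dKO, beside 14.3% of all genes, and 0 lower. In dHET 11 were higher, beside 11.6% of all genes, and 1 was lower. In that list G0s2, an inhibitor of the lipase encoded by Pnpla2, was higher in dKO at P2.5, with 36.8 FPKM in dKO and 21.5 FPKM in dHET (log2 change 0.75, and 0.54 with GC content and length adjusted), and had 29.1 FPKM in dKO and 19.2 FPKM in dHET at E15.5 (0.57). Plin4 was higher in dKO at E15.5, with 3.48 FPKM in dKO and 1.67 FPKM in dHET (log2 change 0.75, and 0.35 with a pseudocount of 5).

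The list of fatty acid synthesis and malonyl-CoA control had a median log2 difference between stages of -0.10 in dKO and -0.08 in dHET. Of 20 genes, 3 in dKO were at least 1.5-fold higher at P2.5, beside 14.3% of all genes, and 3 were lower. In dHET 2 were higher, beside 11.6% of all genes, and 3 were lower. The desaturase Scd2 had 63.1 and 50 FPKM in P2.5 dKO and dHET, against 162 and 142 FPKM in E15.5 dKO and dHET. Acacb went the other way, with 33.1 and 29.1 FPKM at P2.5, against 16.4 and 15.6 FPKM at E15.5. Slc25a1, which exports citrate from the mitochondrion for fatty acid synthesis, was the only one of the list's 20 members past 1.5-fold with genotype. It had 16.9 FPKM in P2.5 dKO and 6.55 FPKM in P2.5 dHET (log2 change 1.24), and 12.6 FPKM in E15.5 dKO and 8.51 FPKM in E15.5 dHET (0.52).

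The nuclear receptors and coactivators had median log2 differences between stages of -0.10 in dKO and -0.03 in dHET over 22 genes. Esrra, an estrogen-related receptor, had 43.8 and 34.1 FPKM in P2.5 dKO and dHET, against 22.9 and 20.7 FPKM in E15.5 dKO and dHET. The coactivator Ppargc1a had 10.5 and 12.6 FPKM in P2.5 dKO and dHET, against 15.2 and 15.7 FPKM in E15.5 dKO and dHET. Past 1.5-fold with genotype was Esrrb alone, at 6.55 FPKM in P2.5 dKO and 3.18 FPKM in P2.5 dHET (log2 change 0.85, and 0.50 with a pseudocount of 5).

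In the list of pyruvate dehydrogenase control and uncoupling, Pdk3 was the 1 of 14 members past 1.5-fold with genotype, with 31.4 FPKM in P2.5 dKO and 20.3 FPKM in P2.5 dHET. Its log2 change of 0.61 was under 1.5-fold when centred (0.54), rescaled (0.45), adjusted for GC content and length (0.57) or taken with a pseudocount of 5 (0.53). Between stages 8 of its members in dKO were higher at P2.5 and 0 lower, beside 14.3% of all genes higher. In dHET 6 were higher, beside 11.6%, and 2 were lower, Pdk1 and Pdk3. The adenine nucleotide carrier Slc25a4, among the highest, had 2400 and 1890 FPKM in P2.5 dKO and dHET, against 760 and 688 FPKM in E15.5 dKO and dHET.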

How the data were processed

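RNA was extracted with TRIzol and selected for poly-A, per the labels' protocols, and sequenced as 100-base reads from 1 end at P2.5 and both ends at E15.5. The authors deposited 1 table per stage with FPKM values and their own fold changes, test statistic (a score), p-values and q-values; the submitters' processing notes name mm9, TopHat, Bowtie and Cufflinks, without versions. How the tables were scaled, and how reads with more than 1 match were treated, is not stated. A total of 86 rows per stage, displaced by commas in gene names, were realigned. Rows with the status OK or NOTEST were used, and a pseudocount of 1 and a minimum FPKM of 1 in either library were applied. Fold changes are on the log2(FPKM + 1) scale, which understates changes of low genes. The E15.5 fold in the authors' deposited table has dKO below the control, so its sign was inverted.

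Genes called are those past 1.5-fold; there is no test with 1 library per group. Depth was recovered from genes with 1 annotated coding transcript, and fragment numbers are approximate. Copies were sought with blastn 2.17.0 in NCBIM37. The calculation was tested on simulated data. Python 3.11.15 and pandas 2.3.3 were used. Genes named are every gene of the set and, from each related list, those past 1.5-fold and the 2 with the largest changes per stage, of which the text gives some; others were named after their values were seen. The genes and lists were chosen with earlier results of these data known.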

Additional observations from a re-analysis of the deposited data

Results flagged for a closer look

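Angptl4 and Acot1 changed in opposite directions with genotype at the 2 stages, by at least 1.2-fold each way as deposited. Angptl4 had log2 changes of 0.35 (P2.5) and -0.37 (E15.5), and Acot1 had 0.29 (P2.5) and -0.33 (E15.5). At P2.5 both were smaller when rescaled (0.20 for Angptl4 and 0.13 for Acot1), and Acot1 was 0.10 with GC content and length adjusted. With a pseudocount of 5 the E15.5 values were -0.16 for Angptl4 and -0.23 for Acot1. All of these are under 1.2-fold, with their directions kept. Other settings gave larger E15.5 values. With a pseudocount of 0.1 they were -0.53 for Angptl4 and -0.37 for Acot1, and rescaled they were -0.50 and -0.37. These 2 settings are not separate, because rescaling raises the values and keeps the pseudocount of 1, which then weighs less. Rescaling moved the median change of all genes at E15.5 by -0.01. The difference between stages was not tested, each value compares 1 dKO with 1 dHET library, and neither gene reached 1.5-fold at either stage. Acot1 shares sequence with copies over 78.1% of its transcript.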

How the results depend on the processing

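Counts of 0 genes past 1.5-fold with genotype held at both stages with a pseudocount of 0.1. They also held with centring, rescaling to a sum of 1000000 and adjustment for transcript GC content and length. With no low-value filter the count also held at E15.5, over 35 genes in place of 33. At P2.5 all 35 genes already passed the filter, so leaving it out could only repeat the 0. Other settings could only repeat the 0. These were a pseudocount of 5, filters at FPKM 5 and 10, rows of every status and a fold of 2. The same holds for the set of 29 genes without copies over 20% or more of the transcript. With a threshold of 0.32 on the log2 scale the counts were 7 (P2.5) and 4 (E15.5). The 7, all higher in dKO, became 1 higher and 5 lower when rescaled, 1 and 0 with GC content and length adjusted, and 4 and 0 when centred; the 4, all lower, became 1 with a pseudocount of 5 and 2 with a filter at FPKM 10. Rescaling moved the median change of all genes at P2.5 by -0.16. The median of the fatty acid genes was then -0.06, and with GC content and length adjusted it was -0.01, so its sign is not fixed. The adjustment also centres all genes, so these values do not show the part of GC content and length alone. Relative to all genes the median of the fatty acid genes was 0.05 as deposited and 0.03 rescaled. Between stages, 31 to 34 genes in dKO and 29 to 35 in dHET were higher at P2.5 under the alternatives that kept all 35 genes. The median difference was 1.395 (pseudocount 5) and 1.393 (rescaled) in dKO, and 1.254 and 1.218 in dHET; rescaling shifted all genes by -0.35 and -0.20. Single changes moved by over 0.1 in 55 of 313 values at P2.5 and 4 of 288 at E15.5, and 0 passed 1.5-fold. The alternatives for the stage comparison, the copies, these lower-threshold counts and the related genes were chosen after seeing the data. No paired analysis was possible because each group has 1 library. Depth did not limit most genes, but Ucp3 at E15.5 rests on too few fragments.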
